A study of Macaca mulatta with 6 samples.

Results

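SPP1 and TGFBI encode secreted matricellular proteins, and each was read by 1 probe set among the 14132 named genes of the array. SPP1 was read by MmuSTS.2862.1.S1_at and TGFBI by MmugDNA.5064.1.S1_at, the only probe sets whose annotation carries these symbols. The arrays held RNA of luteal cells of the rhesus macaque (Macaca mulatta), dispersed from corpora lutea collected 12 days after the LH surge. The corpus luteum is the progesterone-secreting gland that an ovulated follicle becomes. Cells were plated on fibronectin in serum-free medium and exposed for 24 h from plating to 0.1% DMSO as vehicle control or to T0901317 at 1 µM. T0901317 is a man-made activator of the liver X receptors, nuclear receptors that control genes of lipid handling. All cells of both groups had insulin, transferrin and selenium in the medium, and no group carried a genetic change. Each group had 3 arrays, and the T0901317 array of each replicate was paired with the DMSO array of the same number. The labels call the replicates biological without saying whether each is 1 animal, so the spread between replicates may be biological, technical or both.

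Matricellular proteins are secreted into the extracellular matrix but act mainly as signals to cells rather than as scaffold. SPP1, or osteopontin, is an acidic phosphoprotein that binds integrins and CD44, and activated macrophages are a well-known source. TGFBI is a secreted protein built from FAS1 domains that binds collagens, fibronectin and integrins, and it was named for its induction by transforming growth factor beta (TGF-beta). In the corpus luteum, matrix remodelling and the entry of macrophages accompany regression of the gland.

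All levels below are log2 values made with RMA, and all changes are T0901317 minus DMSO on that scale. The median level of an array lay between 5.54 and 5.71. A value of 4.63, the 95th percentile of the mean levels of the Bacillus control probe sets, served as a reference for dim signal. The luteal label was checked against 12 marker genes, of which 8 were measured. All 8 lay above the dim reference on all 6 arrays, with STAR, which carries cholesterol into mitochondria, at a mean of 11.00 with DMSO. CYP11A1, LHCGR and SCARB1 were among those not analysed here. Of the macrophage markers, 14 of 14 measured lay above the dim reference on all arrays. Their mean levels with DMSO ran from 4.74 (ITGAM) to 11.08 (CD14). In both lists each gene was read by its brightest probe set, and other probe sets of some genes fell below the reference. On each array 68.8% to 74.1% of all tested probe sets lay above it, so passing it says little by itself. The arrays of replicate 3 differed from the others in RNA quality. The mean 3' minus 5' difference of the actin, GAPDH and EF1a controls was 1.89 on the DMSO array and 1.30 on the T0901317 array of replicate 3, and between 0.69 and 1.00 on the other 4 arrays.

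The level of SPP1 differed far more between replicates than between treatments. With DMSO it was 8.66, 11.77 and 8.10 in replicates 1, 2 and 3, and with T0901317 it was 7.91, 11.03 and 7.19. Replicate 2 was high in both groups, replicates 1 and 3 were low in both, and the groups overlapped. The means were 9.51 ± 1.98 with DMSO and 8.71 ± 2.04 with T0901317 (SD, n = 3 each). The range over the DMSO arrays was 3.67, or 12.8-fold, and over the T0901317 arrays 3.84, or 14.3-fold.

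Within pairs, SPP1 was lower with T0901317 by a nearly constant amount. Its changes were -0.75, -0.74 and -0.91 in pairs 1, 2 and 3. The mean was -0.80 ± 0.09 (SD, n = 3 pairs), which is 1.74-fold lower. On the linear scale the T0901317 array held 59.6%, 59.9% and 53.3% of the DMSO level of its pair. The change was thus much the same in the replicate with the highest level as in those with low levels. It amounted to 21.7% of the range of the DMSO arrays.

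TGFBI varied less between replicates, and its change varied more. Its level with DMSO was 8.26, 9.68 and 9.33 in replicates 1, 2 and 3, and with T0901317 it was 7.53, 9.22 and 8.22. Replicate 1 was lowest and replicate 2 highest in both groups, and the groups overlapped. The means were 9.09 ± 0.74 with DMSO and 8.32 ± 0.85 with T0901317 (SD, n = 3 each), with ranges of 1.42 (2.67-fold) and 1.68 (3.21-fold).

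The changes of TGFBI were -0.73, -0.46 and -1.11 in pairs 1, 2 and 3, with a mean of -0.77 ± 0.32 (SD, n = 3 pairs; 1.70-fold lower). The T0901317 array held 60.2%, 72.5% and 46.4% of the DMSO level of its pair. The largest change was in pair 3 and the smallest in pair 2, where TGFBI was highest. The mean 3' minus 5' difference was 1.30 with T0901317 against 1.89 with DMSO in pair 3. It was also lower with T0901317 in pair 2, at 0.69 against 0.76, but higher in pair 1, at 1.00 against 0.83. Without replicate 3 the mean change was -0.60, and with the 3' minus 5' difference as a covariate it was -0.66. The same refits gave -0.74 and -0.76 for SPP1. The change of SPP1 minus that of TGFBI was -0.02, -0.28 and 0.20 in the 3 pairs, with a mean of -0.03 ± 0.24 (SD, n = 3), so the sizes of both changes differed by less than the spread between pairs.

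SPP1 and TGFBI were chosen by this very contrast, on their limma changes. They were among the 9 of 14132 named genes, or 0.0637%, that limma called lower at an adjusted p under 0.05. In either direction 25 named genes were called, and 105 without replicate 3. In the fit of all 3 pairs, 527 named genes, or 3.73%, had an unadjusted p under 0.05. The changes of SPP1 and TGFBI are therefore a description and carry no test here. Both lay below 0 in 3 of 3 pairs, as did 15.8% of all named genes.

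**Figure D1:**
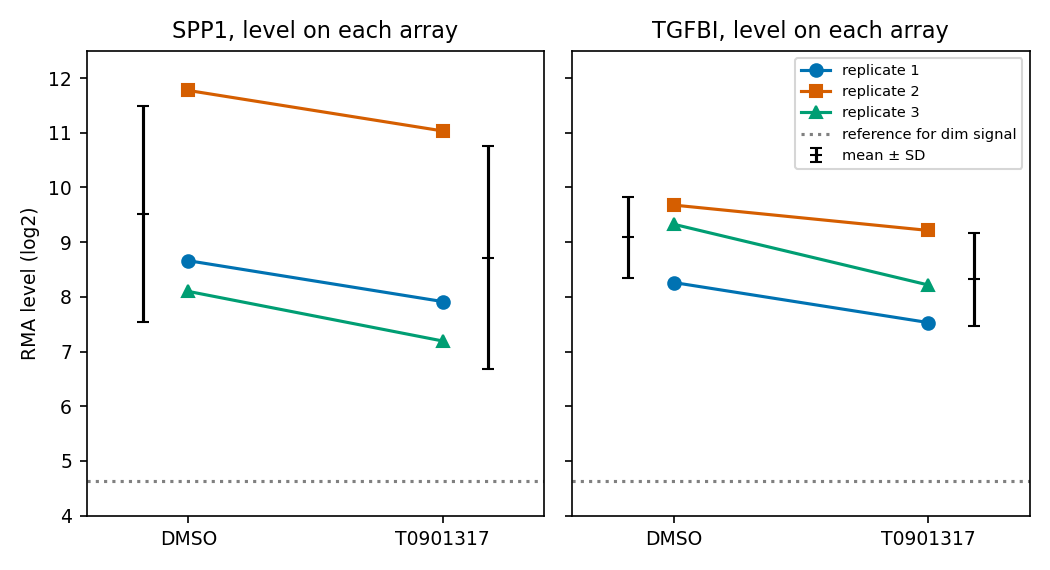
RMA log2 level (vertical axis) of SPP1 (left) and TGFBI (right) on each of the 6 arrays, by treatment (horizontal axis). Lines join the arrays of a replicate, black bars are the mean ± SD of 3 arrays, and the dotted line is the dim reference of 4.63. Every line slopes down, and replicate 2 of SPP1 stands apart, at 11.77 with DMSO, which is 3.11 above replicate 1.

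The difference between replicates was tested by terms of the fit other than the treatment term that the choice of the genes used. Both tests share the residual variance of the same fit, and a choice by treatment call favours a small residual. The replicate tests were therefore not fully independent of the choice. In limma's fit across 52766 probe sets the replicate terms passed for SPP1 (moderated F test, adjusted p = 8.3e-09) and for TGFBI (adjusted p = 3.1e-05). Such differences were common: 6527 named genes, or 46.2%, passed the same test, and 3463 did without replicate 3. Their size was less common. The range of the 3 pair means, each the mean of the 2 arrays of a replicate, was 3.76 for SPP1, and 0.0849% of named genes had a range at least as wide. For TGFBI it was 1.55, which 3.35% of named genes reached.

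The replicates stood in a different order for the 2 genes. The pair means of SPP1 were 8.29, 11.40 and 7.65 in replicates 1, 2 and 3, so that replicate 3 was lowest. Those of TGFBI were 7.90, 9.45 and 8.77, so that replicate 1 was lowest. Each gene kept its order of replicates in both groups, as did 49.2% of all named genes. Over the 6 arrays the levels of SPP1 and TGFBI had a Pearson r of 0.72. It was 0.16 without replicate 2, 0.77 without replicate 1 and 0.99 without replicate 3. These values are descriptions over arrays that form 3 pairs. The likeness of both genes over the arrays thus rested on the high level of replicate 2.

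Marker lists showed which cell types had similar replicate patterns. In bulk RNA, fewer cells of a type and less RNA per cell cannot be told apart. Of 14 macrophage markers, 4 had the full replicate order of TGFBI, against 9.67% of all named genes, and 1 had that of SPP1, against 20.4%. In replicate 1, where TGFBI was lowest, 12 of the 14 were lowest, against 28.0% of all named genes. Other lists shared parts of this pattern. The order of TGFBI was also that of 4 of 9 endothelial and 2 of 8 luteal markers. Of 10 blood cell markers, 7 were lowest in replicate 1. The median r with TGFBI was 0.14 for endothelial, -0.01 for luteal and 0.46 for blood cell markers. For the macrophage markers the median r over 6 arrays was 0.75 with TGFBI and 0.30 with SPP1. CSF1R, the receptor of macrophage colony-stimulating factor, had an r of 0.83 with TGFBI and 0.32 with SPP1. TYROBP, a myeloid signalling adaptor, had 0.80 and 0.30. CSF1R and TYROBP had the highest r with TGFBI among the 14, which ran from -0.26 (ITGAM) to 0.83. With SPP1 the 14 ran from -0.75 (ITGAM) to 0.84 (MSR1). Only MRC1 (0.05 with TGFBI, 0.66 with SPP1) and MSR1 (0.76 and 0.84) had a higher r with SPP1. These values are by the brightest probe set, and others could give another order. Those of MRC1 and AIF1 had the order of TGFBI, and that of CD68 was lowest in replicate 2. For 8 markers of fibroblasts and pericytes the median r was 0.27 with TGFBI and 0.84 with SPP1, and 7 of the 8 had the replicate order of SPP1 and 0 that of TGFBI. LUM, a matrix proteoglycan, had an r of 0.97 with SPP1. STAR had an r of 0.96 with SPP1, although the 8 luteal markers had a median of only 0.17. So the genes that tracked SPP1 came from several lists, and no cell type was assigned to it.

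**Figure D2:**
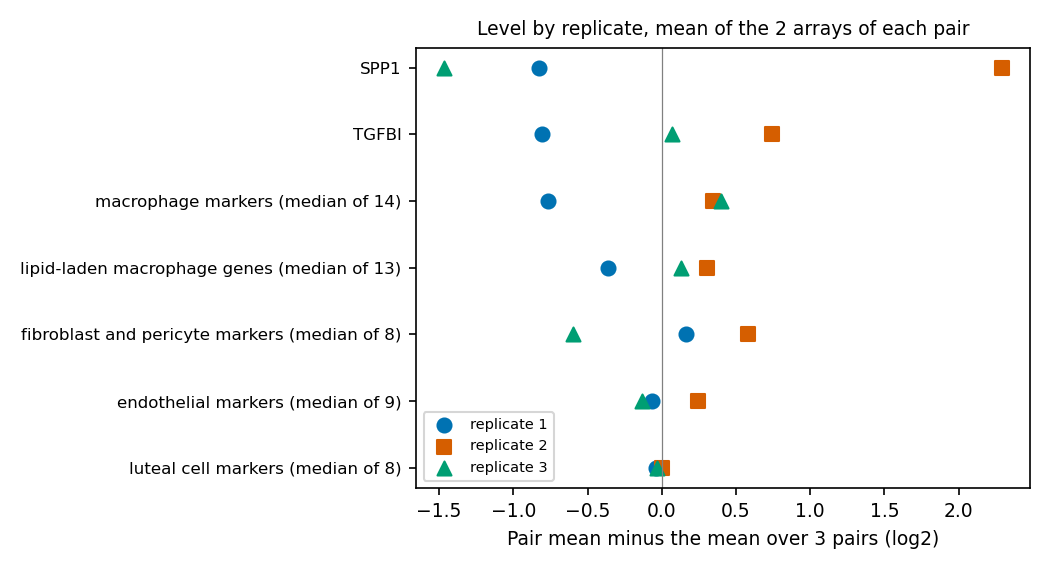
Mean of the 2 arrays of each replicate, minus the mean over 3 replicates (horizontal axis, log2), for SPP1, TGFBI and the median gene of 5 lists (vertical axis, number of genes in brackets). Symbols are replicates. SPP1 is lowest in replicate 3 and TGFBI in replicate 1. Macrophage markers are lowest in replicate 1, and markers of fibroblasts and pericytes in replicate 3.

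The macrophage markers as a list stayed close to 0 with treatment. None of the 14 passed in limma (0 rose, 0 fell), against 0.177% of all named genes called in either direction, and 2 of 14 had an unadjusted p under 0.05, against 3.73% of all named genes. Their median change was -0.02, the same as the median of all named genes, -0.02. In pairs 1, 2 and 3 their median change was -0.04, -0.01 and 0.11. Their log2 summed level ran from 12.26 to 13.51 over the DMSO arrays and from 12.08 to 13.43 over the T0901317 arrays. No measured marker lay below the dim reference on any array by its brightest probe set, and CD163 and FCER1G were not analysed here. Each of the 14 had a change nearer to 0 than those of SPP1 and TGFBI, which were chosen by this contrast. Relative to the median marker of its pair, SPP1 was lower by a mean of -0.82 ± 0.17 and TGFBI by -0.79 ± 0.39 (SD, n = 3 pairs). That choice favours such a gap beside almost any list, so these values are descriptions and test nothing about macrophages. The largest changes among the markers were TYROBP (-0.29 ± 0.08, limma's SE; adjusted p = 0.66) and CSF1R (-0.25 ± 0.11; adjusted p = 1), the latter -0.15 without replicate 3. CD68, a lysosomal glycoprotein, had -0.08 ± 0.08.

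Among markers of other cells none passed either, against 0.177% of all named genes called in either direction. The 9 endothelial markers had a median change of 0.22 with 8 above 0, against a median of -0.02 for all named genes. The highest was CDH5, an adhesion protein of endothelial junctions (0.39 ± 0.10; limma adjusted p = 0.68). Of the 9, 2 lay below the dim reference on all arrays, FLT1 (0.27, among those above 0) and KDR (-0.02). The 8 markers of fibroblasts and pericytes had a median of -0.13 with 7 below 0. The 10 blood cell markers had a median of -0.15 with 9 below 0, and S100A9, a neutrophil and monocyte calcium-binding protein, had -0.56 ± 0.14 (adjusted p = 0.56). Without replicate 3, PPBP, a platelet chemokine that lay above the dim reference on 2 of 6 arrays, was called lower (-0.74). The part of these shifts in the changes of SPP1 and TGFBI was not tested.

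No other gene listed as a matricellular or related matrix protein passed for the treatment. Of 28 listed genes besides SPP1 and TGFBI, 24 were measured. In limma 0 rose and 0 fell (0.177% of all named genes were called), and 2 had an unadjusted p under 0.05 (3.73% did). Their median change was -0.07 with 18 below 0, and their lowest was TNXB, a tenascin, at -0.27 ± 0.14, which was -0.61 in pair 3 and -0.11 without replicate 3. CCN2, a growth factor-binding protein of the matrix, had -0.19 ± 0.07 (adjusted p = 1) and CCN1, its relative, -0.06 ± 0.07. THBS2, an antiangiogenic thrombospondin, had -0.18 ± 0.08 and TNC, tenascin C, -0.19 ± 0.09. Without replicate 1, CCN2 had -0.11 and TNC -0.12. Fibronectin, FN1, had -0.07 ± 0.05 on its brightest probe set, and the plates were coated with this protein. Its other probe set had -0.29 ± 0.12, with -0.49, -0.16 and -0.22 in the pairs. THBS1, thrombospondin 1, had 0.03 ± 0.09 on its brightest probe set, while another of its 5 probe sets had -0.32 ± 0.10 (adjusted p = 1). GPNMB, a transmembrane glycoprotein of macrophages, had 0.02 ± 0.08. SPARC, SPARCL1, SMOC2 and POSTN were not analysed here. Without replicate 3 the list had 2 calls, CCN2 (-0.24, lower) and THBS1 (0.20, higher). That refit has fewer arrays and residual degrees of freedom, so its calls rest more on limma's variance estimate across probe sets.

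Over the 6 arrays the genes of this list, TGFBI included, ranged from like to unlike SPP1, with a median r of -0.19. FN1 had an r of 0.99 with SPP1 over 6 arrays, and THBS4, a thrombospondin of matrix and muscle, had 0.98. Both were highest in replicate 2, as SPP1 was. TNC and CCN1 ran opposite to SPP1, with r of -0.93 and -0.91. The range of pair means of SPP1, 3.76, compares with a median of 0.42 for the 24 genes of the list.

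Receptors of SPP1 and TGFBI showed no change that passed. Of 14 listed, 11 were measured, 0 rose and 0 fell in limma, and 0 had an unadjusted p under 0.05. Of all named genes, 0.177% were called and 3.73% had such a p, so counts of 0 among 11 say little. The median change was 0.01, with 5 below 0 and 6 above. CD44, the hyaluronan receptor that also binds SPP1, had -0.02 ± 0.10, and ITGAV, the alpha V integrin chain, had -0.11 ± 0.11. ITGB3, which pairs with it, had 0.14 ± 0.10 and ITGB5 -0.05 ± 0.09. ITGB1, the beta 1 chain, had 0.24 ± 0.19, from -0.28, -0.04 and 1.05 in the pairs, so that its value came from pair 3. ITGA8 had the lowest value, -0.28 ± 0.13, and -0.18 without replicate 1. ITGA4, ITGA5 and ITGA9 were not analysed here. A value that missed the threshold does not show that a receptor was the same in both groups.

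Of the other genes with FAS1 domains, the scavenger receptors STAB1 and STAB2 were measured and neither passed (limma, 0 rose, 0 fell, 0 at an unadjusted p under 0.05). Of all named genes, 0.177% were called and 3.73% had such a p. The changes of STAB1 and STAB2 were 0.14 ± 0.11 and 0.03 ± 0.18. STAB2 was variable, with 0.63, -0.08 and -0.46 in the pairs.

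Proteases and crosslinkers that act on SPP1 or TGFBI were measured for 14 of 15 listed genes. In limma 0 rose and 0 fell (0.177% of all named genes were called), and 3 had an unadjusted p under 0.05 (3.73% did). The median change was -0.04. MMP12, the macrophage metalloelastase, had the lowest value, -0.32 ± 0.09 (adjusted p = 0.87), with -0.35, -0.33 and -0.30 in the pairs. The protease CTSD had -0.19 ± 0.08 and PLAU, the urokinase plasminogen activator, -0.19 ± 0.08. The other probe set of CTSD had -0.01 ± 0.12 and that of PLAU -0.13 ± 0.10. Over the arrays MMP9, a gelatinase, followed SPP1 with an r of 0.95, while MMP12 ran opposite to it with an r of -0.90. By their brightest probe sets, 8 of the 14 genes had the replicate order of TGFBI, against 9.67% of all named genes. None had that of SPP1, against 20.4%, but the other probe sets of CTSK and PLAU did. Likeness by r was mixed, with a median of 0.65 with TGFBI and 0.50 with SPP1. CTSD had an r of 0.93 with TGFBI and 0.62 with SPP1, while MMP9 had 0.73 and 0.95 and CTSK 0.74 and 0.92.

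The TGF-beta pathway, which gave TGFBI its name, had 18 of 20 listed genes measured. In limma 0 rose and 0 fell (0.177% of all named genes were called), and 4 had an unadjusted p under 0.05 (3.73% did). The median change was -0.06, with 14 below 0. TGFB3, a ligand, had -0.30 ± 0.12, and SMAD7, an inhibitor that the pathway itself induces, had -0.30 ± 0.10 (adjusted p = 1 for both). TGFB3 had -0.50, -0.37 and -0.05 in the pairs, and ran from -0.43 to -0.21 when 1 replicate was left out. ACVRL1, a receptor, had -0.30 ± 0.12 but lay above the dim reference on 1 array only. LRRC32, which holds latent TGF-beta on the cell surface, had -0.24 ± 0.10. TGFB1, a ligand with a mean level of 5.82 with DMSO, had -0.01 ± 0.13. TGFB2 was among those not analysed here.

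Transcription factors linked to SPP1 were measured for 7 of 12 listed genes. In limma 0 rose and 0 fell (0.177% of all named genes were called), and 1 had an unadjusted p under 0.05 (3.73% did). That gene was RUNX2, a regulator of bone genes, with -0.23 ± 0.09 and with -0.11, -0.12 and -0.45 in the pairs, so that it was -0.12 without replicate 3. Of the 13 measured genes that mark lipid-laden macrophages besides SPP1, 0 passed, and 4 had an unadjusted p under 0.05 (3.73% of all named genes did). Their median was -0.12 with 10 below 0. CD36, a scavenger receptor, had -0.79 ± 0.14 (adjusted p = 0.10) and LIPA, the lysosomal acid lipase, -0.23 ± 0.07 (-0.15 without replicate 1). CD36 had pair changes of -0.90, -1.07 and -0.42, and passed in 3 of 12 refits.

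**Figure D3:**
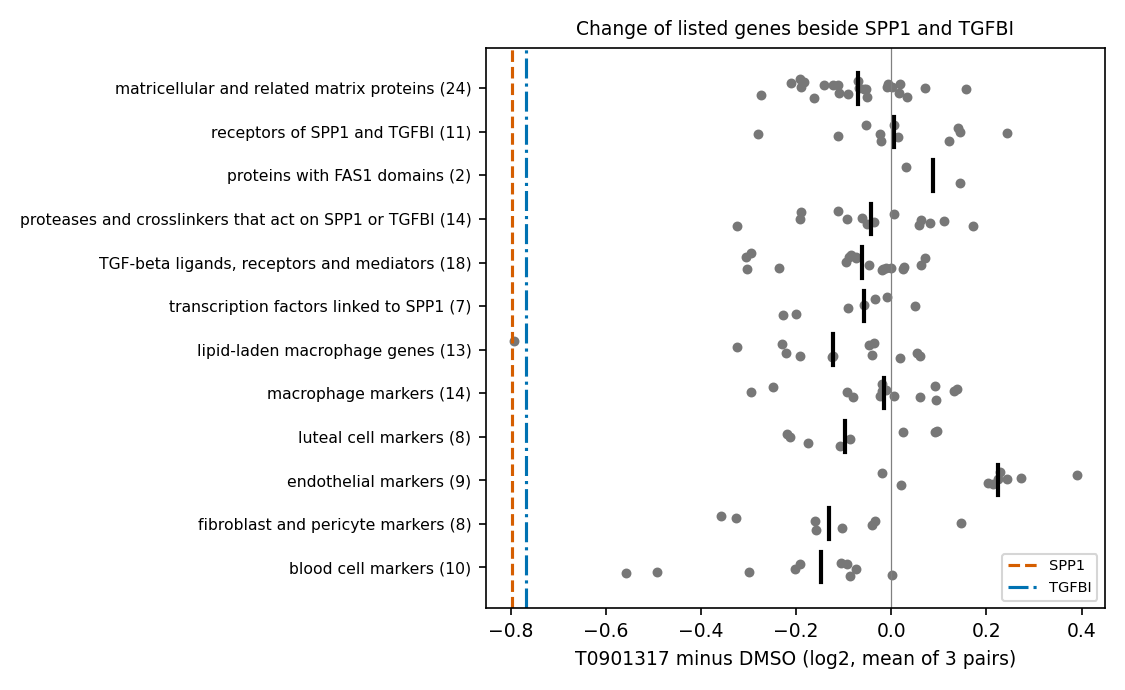
Mean change over 3 pairs (horizontal axis, log2) of the measured genes of 12 lists (vertical axis, number in brackets, SPP1 and TGFBI left out). Points are genes, black bars medians, and the dashed lines mark SPP1 (-0.80) and TGFBI (-0.77). CD36, at -0.79, lies between the lines, and every other listed gene lies to the right of both. SPP1 and TGFBI were chosen by this contrast, which favours such a picture.

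The genes whose level was most like that of each gene were found among the 1461 other named genes with an SD of at least 0.5 over the 6 arrays. For SPP1 they were GUCD1, AP2S1, LOC719688, KCNN4 and IQGAP3, with Pearson r from 0.989 to 0.994. AP2S1 is a subunit of a clathrin adaptor, KCNN4 a calcium-activated potassium channel and IQGAP3 a cytoskeletal scaffold. The changes of these 5 genes with T0901317 were smaller than that of SPP1, from -0.33 (KCNN4) to -0.13 (AP2S1), and none of the 5 passed in limma. In all, 58 genes had an r over 0.95 with SPP1. For TGFBI the closest were TNFAIP8, CCL8, HACD4, CD36 and CLEC4A, with r from 0.940 to 0.974, and 3 genes had an r over 0.95. HACD4 is an enzyme of fatty acid elongation. CCL8, a chemokine, was also lower with T0901317, with -1.48 ± 0.21 (limma adjusted p = 0.029), a call that was lost in 6 of 12 refits, with adjusted p from 0.098 to 1. CLEC4A, a lectin of myeloid cells, had -0.61 (adjusted p = 0.058). CCL8 had its largest change in pair 3 (-2.39, against -0.95 and -1.10), as TGFBI did. SPP1 ranked 179th of the 1461 genes for TGFBI, and TGFBI ranked 485th for SPP1. All of these r values are over arrays that share replicates, and for both genes they include the treatment change.

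SPP1 lies in a cluster of genes for secreted phosphoproteins of bone and tooth. Neighbours were taken from the gene order of RefSeq assembly T2T-MMU8v2.0, with 4 protein-coding genes on each side. All 8 neighbours of SPP1 were measured and 0 were called (limma, 1 at an unadjusted p under 0.05), with changes from -0.49 to 0.07. Of all named genes, 0.177% were called and 3.73% had such a p. The cluster members DMP1 and IBSP lay below the dim reference on all 6 arrays, and MEPE above it on 2. DSPP, of the same cluster, lay above it on all 6, with a mean of 6.04 with DMSO and a change of -0.20 ± 0.13 that ran from -0.34 to -0.13 when 1 replicate was left out and was -0.06 over the mean of its probe sets. PKD2, a calcium channel next to SPP1 on the other side, had -0.05 ± 0.09. HERC6, a ubiquitin ligase family member induced by interferon and the farthest of the 4 on that side, had -0.49 ± 0.08 (adjusted p = 0.082). Its pair changes were -0.47, -0.42 and -0.60. Its replicate pattern was not that of SPP1, with pair means of 10.08, 7.24 and 10.75 and the lowest level in replicate 2. Of the 8 neighbours of TGFBI, 7 were measured and 0 were called (0 at an unadjusted p under 0.05), with changes from -0.11 to 0.15. SMAD5, a signal mediator of bone morphogenetic proteins, lies next to TGFBI and had 0.04 ± 0.08.

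**Figure D4:**
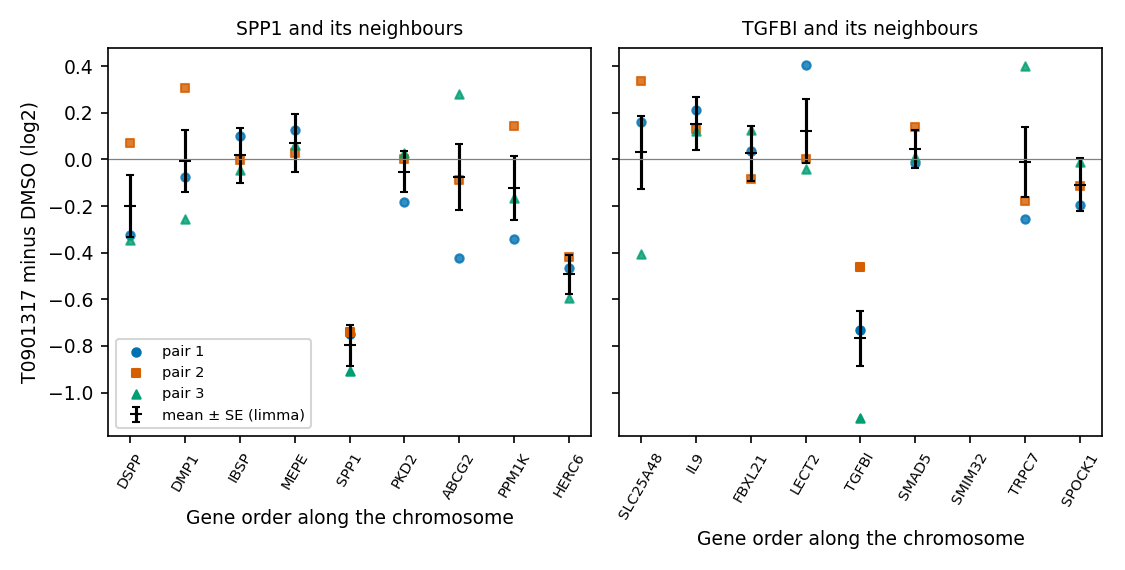
Change with T0901317 (vertical axis, log2) of SPP1 and TGFBI and of 4 protein-coding genes on each side, in gene order (horizontal axis, not to distance). Symbols are pairs and black bars the mean ± limma's SE. SPP1 (-0.80) and TGFBI (-0.77), chosen by this contrast, lie below all their neighbours, of which HERC6 (-0.49) is the lowest. SMIM32 has no value.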

How the data were processed

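The deposited values are log2 levels made with RMA, per the submitters' processing notes; its version, and whether the arrays were processed together, are not given in the sources used here. They ran from 1.81 to 14.7 for 52865 probe sets, and 99 control probe sets were left out of the tests. Symbols were those of the supplied platform annotation: 24956 tested probe sets had 1 symbol, 361 several and 27449 none. Where a gene had several probe sets, the one of highest mean stood for it. No sequences were used, and coordinates served only to put genes in order along a chromosome.

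Changes were fitted over 52766 probe sets with limma 3.58.1 in R 4.3.3, with replicate as a block, a variance trend and two-sided p-values adjusted by Benjamini-Hochberg (threshold 0.05). The replicate terms were tested with the moderated F of the same fit. The design text calls the replicates paired; same-numbered arrays had correlations of deviations of 0.658, 0.813 and 0.830. With 3 pairs, the smallest two-sided p of an exact sign-flip test is 0.25. The number of arrays limits the precision. On simulated arrays for this comparison, run on 52766 probe sets, limma recovered 30 of 67 changes of 0.5, 67 of 67 of 1 and 66 of 66 of 2. It also called 18 of 52566 probe sets that were given no change.

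SPP1, TGFBI and the lists were chosen with earlier results of these data known. By the rule, 22 genes were to be named where measured (CD44, ITGAV, ITGB1, ITGB3, ITGB5, ITGA4, ITGA9, SPARC, THBS1, THBS2, TNC, POSTN, CCN1, CCN2, FN1, GPNMB, TGFB1, CD68, CD163, CSF1R, TYROBP and STAR), with every list member past the threshold and the 5 genes closest to each. Other genes were named after their values were seen.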

Additional observations from a re-analysis of the deposited data

How the results depend on the processing

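The changes of SPP1 and TGFBI kept their direction under all 12 alternatives, from -0.83 to -0.74 for SPP1 and from -0.92 to -0.60 for TGFBI. Most of these alternatives could not have turned it. Leaving out 1 replicate cannot turn a direction shared by all 3 pairs. Fits without the replicate block, the variance trend or dim probe sets left the changes at -0.80 and -0.77. So did robust variance and the mean of probe sets, since none of these alters the mean change of a gene with 1 probe set. The other normalizations and the covariate could have turned it, and gave -0.82 to -0.76 for SPP1 and -0.79 to -0.66 for TGFBI. The replicate terms of both genes passed under 11 of 11 alternatives, with largest adjusted p of 0.0034 and 0.0033. The number of named genes called for the treatment, 25, was 0 without the replicate block, 3 without the variance trend, 15 after cyclic loess, 15 after quantile normalization, 15 with the mean of probe sets and 74 with the RNA quality covariate, and 16 to 105 when 1 replicate was left out. The number called for replicate, 6527, was 4132 with the covariate and 3463 to 5986 when 1 replicate was left out. The count of matricellular genes was 0 to 2, of lipid-laden macrophage genes 0 to 1 and of blood cell markers 0 to 1 when 1 replicate was left out. CD36 gave a count of 1 for lipid-laden macrophage genes with median centring and with the covariate. The cause was not tested.

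Directions turned for the following genes, none of them past the threshold with all 6 arrays. When 1 replicate was left out, CD44 ran from -0.106 to 0.068, ITGAV from -0.181 to 0.0044, ITGB1 from -0.159 to 0.503, ITGB5 from -0.130 to 0.026 and THBS1 from -0.052 to 0.198. CCN1 ran from -0.123 to 0.0063, GPNMB from -0.090 to 0.0945, TGFB1 from -0.110 to 0.0954, STAR from -0.154 to 0.0075, PKD2 from -0.092 to 0.014, SMAD5 from -0.0040 to 0.074 and MMP9 from -0.063 to 0.016. CD44 had 0.013 after cyclic loess and 0.019 after quantile normalization. With the RNA quality covariate ITGB1 had -0.060 and TGFB1 0.052. Median centring gave GPNMB -0.0039. With the mean of probe sets ITGB3 had -0.013, THBS1 -0.127, GPNMB -0.028, TGFB1 0.066, SMAD5 -0.021 and LUM 0.0010. HERC6 passed in 2 of 12 refits, without replicate 3 (-0.44) and with the covariate (-0.46). CLEC4A passed in 3, among them the mean of its probe sets (-0.80).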
